A study of Mus musculus with 32 samples.

Results

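The 9 genes described here encode Polycomb proteins: the chromobox genes Cbx2, Cbx6, Cbx7 and Cbx8, the ring finger genes Bmi1, Ring1 and Rnf2, and Ezh2 and Suz12. They were taken by symbol from the 55103 rows of the deposited table, and all 9 were among the 20474 genes that passed the filter on low counts. Cbx7 was selected on its measured level, which is low in the untreated tumours of the photon arm, so its levels across the groups are given as a description with no test. RNA was sequenced from 32 bulk tumours of KPC36, a mouse pancreatic tumour line, and the labels call the cell type malignant. There were 8 libraries in each of 4 groups: tumours treated with carbon ions (carbon_treated) and their untreated controls (carbon_ctrl), and tumours treated with photons (photon_treated) and their untreated controls (photon_ctrl). All groups share the KPC36 line. The dose, the host strain, its age and the genotype of the line are not part of the labels used here. Each group mixes pieces from day 4 and day 7, and the labels do not tie a library to a day. The share of each day in a group is therefore unknown. A difference between days can enter each group's spread and also the differences between groups. Library titles begin with D or M, letters whose meaning is not stated, and D occurs in 4 carbon_ctrl and 3 carbon_treated libraries and in no photon library. The title numbers of all photon_treated libraries lie above those of every other library. Their meaning is not stated either, so anything that goes with them cannot be told apart from the photon treatment.

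Polycomb proteins keep genes silent through marks on histones. Polycomb repressive complex 2 (PRC2), built on the methyltransferase Ezh2 and its partner Suz12, methylates lysine 27 of histone H3. Canonical PRC1 reads that mark through a chromobox (Cbx) subunit, and its catalytic ring finger proteins Ring1 and Rnf2, paired with a partner such as Bmi1, ubiquitinate histone H2A. The Cbx subunits replace one another within PRC1. Cbx7 is known for repressing the Cdkn2a locus in stem and progenitor cells and for loss of expression in several carcinomas, and the Hox clusters are classical Polycomb targets.

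Library totals ranged from 13891863 to 71645903 estimated counts, and each member had at least 137.5 estimated counts in every library. Levels are in CPM, estimated counts relative to the library total after scaling by the trimmed mean of M values, and every fold change is on the log2 scale. In bulk tissue, fewer cells of a type and less RNA per cell cannot be told apart. The 10 epithelial markers were detected in all groups, with a summed level from 2426 to 5426 CPM. The 10 fibroblast markers summed to 6049 to 27940 CPM, and whether stromal or malignant cells held this RNA was not tested. The fibroblast score, the mean log2 CPM of its markers, was 8.46 ± 0.40 (SD, n = 8) in photon_ctrl and 8.04 ± 0.38, 7.97 ± 0.39 and 7.999 ± 0.285 in carbon_ctrl, carbon_treated and photon_treated. The epithelial score was 5.999 ± 0.413 in photon_ctrl and 6.54 ± 0.31, 6.73 ± 0.48 and 6.22 ± 0.33 in the same order. All 10 fibroblast markers lay lower after photons (2 called, Pdgfrb and Fap) and lower in carbon_ctrl than in photon_ctrl (2 called, Pdgfra and Col1a2). All 10 epithelial markers lay higher in carbon_ctrl (3 called, Cldn7, Cldn4 and Cdh1). Of all genes, 2.1% were called lower after photons, and 4.01% lower and 5.13% higher in carbon_ctrl. No marker of either list had a group mean of 0. Both scores moved with the group in which Cbx7 is low, and their part in the levels below was not tested beyond the fits with a score as a term.

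The bases before a start site of Cbx7 are shown because the results turn on this gene. RefSeq's promoter table (GRCm38.p6) lists 1 start per gene and held 8 of the 9 members; Cbx2 was not among them. The start it lists for Cbx7 is an internal one: its window of 250 bases, chr15:79932647-79932896 (minus strand), lies 38.2 kb inside the span that GENCODE gives the gene. The windows of Cbx6 (chr15:79834334-79834583) and Ezh2 (chr6:47595031-47595280), both on the minus strand, also end inside their GENCODE spans, by 105 and 61 bases, and overlap transcribed bases of longer transcripts, so they are described and not shown. The Cbx7 sequence runs 5′ to 3′ on the gene's strand and covers chr15:79932653-79932896, without 6 bases annotated as transcribed and untranslated. Capitals mark matches, on either strand, to CCAAT (the NF-Y box), CACGTG (the E-box), GGGCGG (the GC box), TGACGTCA (the CRE) and the E2F-type words TTTGGCGC and TTTCGCGC, with overlapping matches counted separately.
Cbx7: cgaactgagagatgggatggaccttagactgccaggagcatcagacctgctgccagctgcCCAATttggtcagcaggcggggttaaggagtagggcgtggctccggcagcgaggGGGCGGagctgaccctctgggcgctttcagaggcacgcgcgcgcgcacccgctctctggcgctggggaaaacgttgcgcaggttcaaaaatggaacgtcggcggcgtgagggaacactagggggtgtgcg
The window of Cbx7 held 1 CCAAT and 1 GGGCGG, that of Cbx6 held 2 GGGCGG and 1 CACGTG, and that of Ezh2 held 3 CCAAT. Of 27025 windows of this length, 34.5% held CCAAT, 32.9% GGGCGG, 6.05% CACGTG, 1.62% TGACGTCA, 0.437% TTTGGCGC and 0.255% TTTCGCGC. The 8 windows of the members held from 20 to 37 CpG dinucleotides, with 23 in Cbx7, against a median of 6 over all windows. These matches describe letters only.

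Cbx7 (chr15:79915807-79971119, minus strand, GRCm38, GENCODE) was lowest in the untreated photon tumours. Its CPM was 12.9, 16.6 and 25.1 (lowest, median and highest) in photon_ctrl, 29.1, 40.6 and 46.7 in carbon_ctrl, 26.3, 41.2 and 49.4 in carbon_treated and 26.9, 38.1 and 44.8 in photon_treated. All 8 photon_ctrl libraries lay below the other 24 libraries, and the other 3 groups overlapped one another. Such a gap was found for 4 of 20474 genes (0.0195%): Cbx7, Alkbh4, Slc12a9 and B630019K06Rik, a list read from the values. Group means were 17.1 ± 3.61 CPM in photon_ctrl, 40.4 ± 5.68 in carbon_ctrl, 39.2 ± 8.27 in carbon_treated and 37.2 ± 5.70 in photon_treated (SD, n = 8 each). Photon-treated tumours thus held 2.18 times the level of their own controls, a log2 fold change of 1.12 (SE 0.13). Carbon-treated tumours lay beside their own controls, with a log2 fold change of -0.04 (SE 0.13). Carbon minus photon, the effects were -1.17 apart on the log2 scale (SE 0.18), a value that contains the group on which Cbx7 was selected.

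The gap between the untreated groups rests on the same photon_ctrl libraries, on whose level Cbx7 was selected, so it is not a separate result. The Cbx7 level in carbon_ctrl was 2.36 times that in photon_ctrl (log2 fold change 1.24, SE 0.13), and the irradiated groups were 0.07 apart on the log2 scale (SE 0.13). Among M-titled libraries the mean was 39.3 CPM in carbon_ctrl (n = 4) and 36.98 in carbon_treated (n = 5), against 41.4 and 42.8 with D titles (n = 4 and 3). With a fibroblast score as a term, the log2 fold change was 0.95 after photons and 1.07 between the controls; with an epithelial score it was 1.08 and 1.11. Leaving out single libraries gave 1.08 to 1.23 after photons and 1.20 to 1.35 between the controls. Both ranges contain photon_ctrl, the group of the selection, so they describe its low level and are no test.

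**Figure D1:**
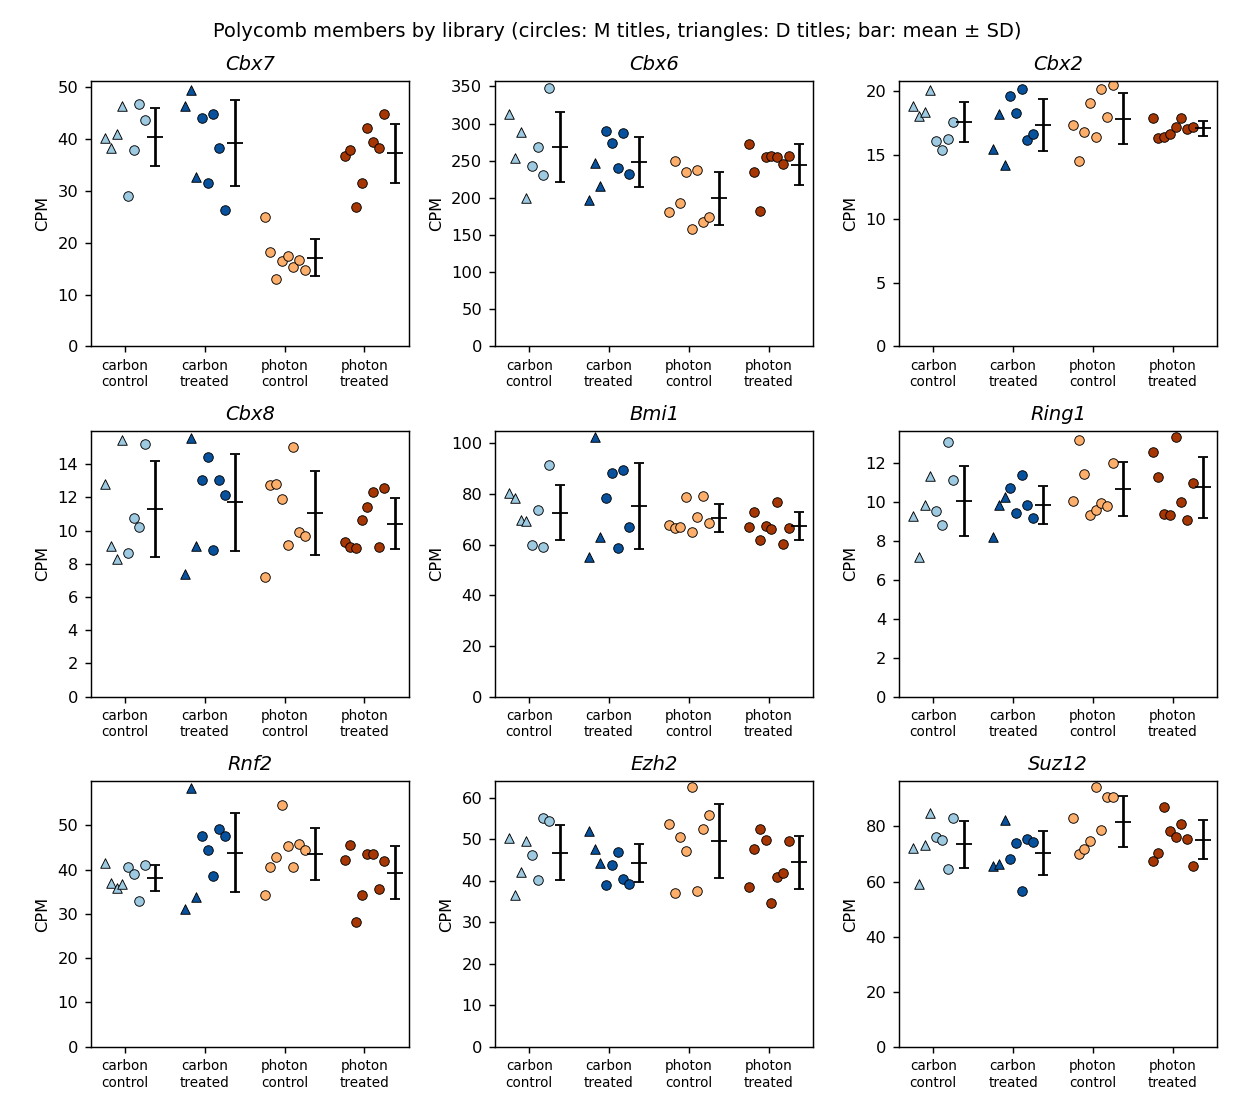
Each point is 1 library, in CPM, by group, with circles for M titles and triangles for D titles; the bar beside each group is the mean ± SD (n = 8). In the Cbx7 panel the 8 photon_ctrl libraries lie between 12.9 and 25.1 CPM, below all others, while every other member overlaps between the groups.

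Over all 9 members, Cbx6 had the highest CPM per kb of exonic length (22.6), followed by Bmi1 (17.98) and Suz12 (15.2), and Cbx8 (3.02) and Ring1 (3.19) had the lowest. By coding transcript length Cbx6 and Bmi1 were again highest, followed by Cbx7.

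Cbx6 (chr15:79823896-79834688, minus strand) encodes another chromobox reader, and it also lay lower in the untreated photon tumours. Its CPM was 158, 187 and 250 (lowest, median and highest) in photon_ctrl and 200, 262 and 348 in carbon_ctrl, and it was 197, 244 and 290 in carbon_treated and 182, 255 and 272 in photon_treated. The groups overlapped, but all 8 carbon_ctrl libraries exceeded the median of photon_ctrl. In edgeR's quasi-likelihood test the controls differed by a log2 fold change of 0.43 (SE 0.11, adjusted p = 0.0126), or 1.35-fold. The difference lost its call with an epithelial score as a term (0.34, adjusted p = 0.137) and kept it with a fibroblast score (0.43, adjusted p = 0.0422). After photons the log2 fold change of Cbx6 was 0.29 (SE 0.11, adjusted p = 0.11) with 7 of 8 treated libraries above the control median; without photon_ctrl replicate 2 the value was 0.35 and passed (adjusted p = 0.0464). Cbx6 overlaps Npcd on the same strand, so reads shared with that gene are uncertain.

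Cbx2 and Cbx8 showed no difference past the test. Cbx2, a reader known for compacting chromatin, was 17.6 ± 1.58 CPM in carbon_ctrl, 17.4 ± 2.06 in carbon_treated, 17.9 ± 2.02 in photon_ctrl and 17.1 ± 0.61 in photon_treated (SD, n = 8). Cbx8 (11.3, 11.7, 11.1 and 10.4 CPM in the same order) varied more within a group, with an SD of 1.53 to 2.93 CPM. The 95% intervals of the photon effect ran from -0.22 to 0.10 for Cbx2 and from -0.42 to 0.24 for Cbx8 on the log2 scale.

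Among the PRC1 ring finger genes, Bmi1, the partner of the catalytic subunits, was 67.4 to 75.3 CPM on average across the groups, and Ring1, a catalytic subunit, 9.86 to 10.8 CPM. No contrast passed for either. Rnf2, the other catalytic subunit, was 33.0, 37.96 and 41.4 CPM (lowest, median and highest) in carbon_ctrl, 31.2, 45.97 and 58.4 in carbon_treated, 34.3, 43.7 and 54.6 in photon_ctrl and 28.3, 42.1 and 45.6 in photon_treated. These ranges overlapped in all 4 groups, and all 8 carbon_ctrl libraries lay below the median of photon_ctrl (log2 fold change -0.19, adjusted p = 0.286). Its beam effects differed by 0.35 (SE 0.15, adjusted p = 0.328), with 0.20 after carbon ions and -0.14 after photons.

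Ezh2, the PRC2 methyltransferase, was 36.5, 47.8 and 55.0 CPM (lowest, median and highest) in carbon_ctrl, 38.9, 44.1 and 51.9 in carbon_treated, 36.95, 51.4 and 62.5 in photon_ctrl and 34.6, 44.8 and 52.4 in photon_treated. The groups overlapped throughout, with 7 of 8 photon_treated libraries below the median of their controls. The log2 fold change was -0.16 after photons (95% interval -0.37 to 0.05) and -0.08 after carbon ions (95% interval -0.30 to 0.13). Suz12, the partner that holds the complex together, was 81.8 ± 9.34 CPM in photon_ctrl, 75.2 ± 7.07 in photon_treated, 73.5 ± 8.62 in carbon_ctrl and 70.4 ± 7.88 in carbon_treated (SD, n = 8). Its interval was -0.29 to 0.04 after photons and -0.32 to 0.01 between the controls.

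Counted over the 8 members other than Cbx7, edgeR called 0 after photons, against 3.81% of all genes tested, with 1 at an unadjusted p under 0.05 and 0 by DESeq2. After carbon ions it called 0 (0.0% of all genes), with 0 unadjusted and 0 by DESeq2. For the difference between the beam effects it called 0 (0.0781% of all genes), with 2 unadjusted and 0 by DESeq2. Between the controls it called 1, Cbx6 (9.14% of all genes), and between the irradiated groups 0 (5.08%), with 0 unadjusted and 0 by DESeq2. The contrasts with photon_ctrl include the group by which Cbx7 was named, so nothing is read from those counts. The median log2 fold change of the 8 members was -0.08 after photons, -0.02 after carbon ions and -0.05 between the controls, against -0.000605, 0.00658 and -0.0232 over all genes tested. The widest SE of a member was 0.16 in the contrasts of 2 groups and 0.23 for the difference between beam effects, both of Cbx8, and an adjusted p above 0.05 does not show that levels were alike.

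**Figure D2:**
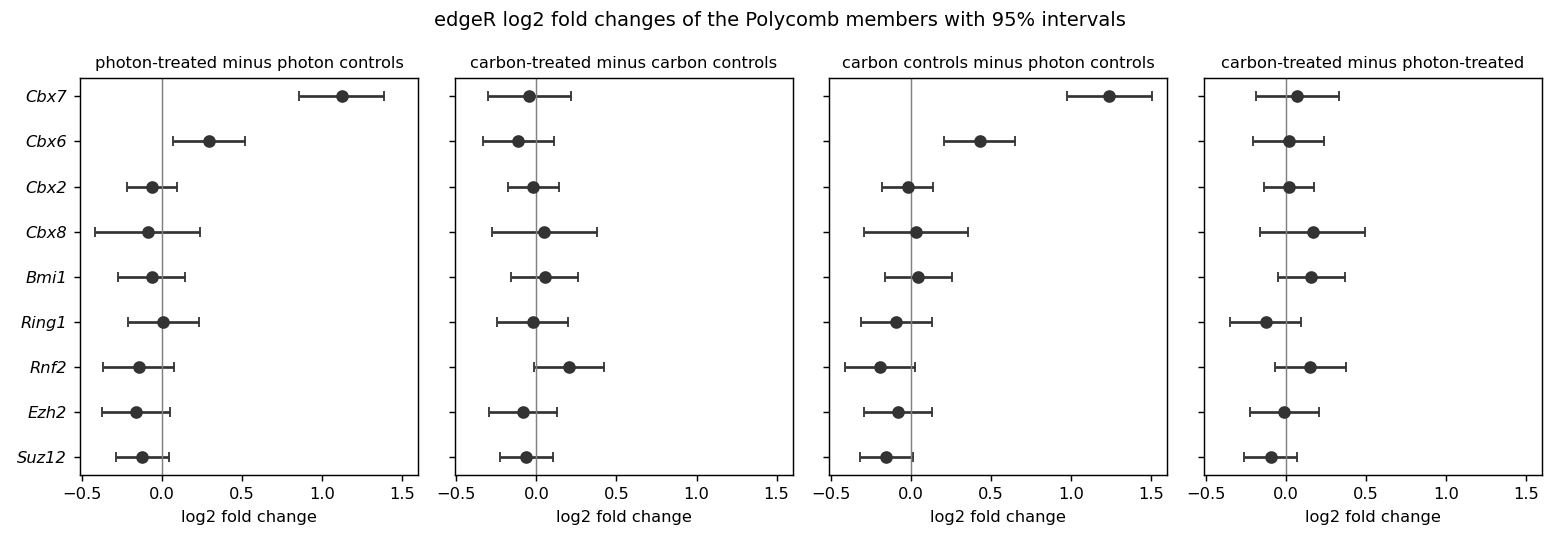
Log2 fold changes of the 9 members from edgeR in 4 comparisons, with 95% intervals; for Cbx7, selected on its photon_ctrl level, they show the error of the fit and are no test. Cbx7 sits at 1.12 after photons and 1.24 between the controls and near 0 in the other comparisons, and Cbx6 at 0.29 and 0.43.

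With 1 slope shared by the 4 groups, Ezh2 followed the cell-cycle score, the mean log2 CPM of 22 replication and mitosis genes. Single groups were not fitted. The slope was 0.34 log2 units of Ezh2 per unit of score (SE 0.09, adjusted p = 0.0084 in edgeR with group as a factor), with 20.1% of all genes called and 12.3% called with a positive slope. After subtracting group means the correlation over 32 libraries was r = 0.594 and rho = 0.495, and r = 0.480 without the 2 libraries of most extreme score. Not every group showed it alike. Less group means, carbon_treated replicate 8, of highest score there (0.36), had Ezh2 at -0.17. Replicate 2, next in score (0.27), had 0.12, and replicate 1, of lowest score (-0.30), had 0.24. Without photon_ctrl replicate 2 the adjusted p was 0.0607 and the slope 0.31; with M-titled libraries alone the slope was 0.36 (adjusted p = 0.00587). The score itself was 5.79 ± 0.53 in photon_ctrl and 5.34 ± 0.42 in photon_treated, and all 22 genes lay lower after photons, with 2 called (Bub1b and Ccnb2), against 2.1% of all genes called lower in that contrast. Suz12 had a slope of 0.19 (adjusted p = 0.0799), and Cbx7 of -0.09 (adjusted p = 0.653).

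Cbx7 fell with the fibroblast score in a fit with 1 slope shared by the 4 groups. Single groups were not fitted here either. The slope was -0.40 (SE 0.12, adjusted p = 0.0279 in edgeR), a call shared with 7.72% of all genes, and 1.14% with a negative slope. The correlation less group means was r = -0.540 and rho = -0.481, and r = -0.387 without the 2 libraries of most extreme score. Less group means, photon_treated replicate 5, of highest score there (0.49), had Cbx7 at 0.20. Replicate 3, of lowest score (-0.2945), had -0.45, and replicate 8, next lowest (-0.2861), had 0.28. The call was lost without carbon_treated replicate 2 (adjusted p = 0.0542), replicate 3 (0.0513) or replicate 8 (0.127), carbon_ctrl replicate 5 (0.0856) or replicate 7 (0.0534), or photon_ctrl replicate 1 (0.0573) or replicate 3 (0.0955), with M-titled libraries alone (-0.33, adjusted p = 0.178) and with no filter on low counts (-0.38, adjusted p = 0.0654). Its slope on the epithelial score was 0.25 (SE 0.12, adjusted p = 0.287, 1.01% of genes called). In all 27 slopes were fitted, 9 members on each of 3 scores, and the 2 called were Ezh2 on the cell-cycle score and Cbx7 on the fibroblast score. With upper-quartile scaling Cbx6 was also called on the cell-cycle score (-0.35, adjusted p = 0.00933, against -0.20 and 0.18 with TMM). Suz12 passed on that score in 5 of 32 fits with a library left out: without replicate 3 of carbon_treated, photon_ctrl or photon_treated, or replicate 5 or 8 of photon_treated (slope 0.21 in each, lowest adjusted p = 0.042).

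**Figure D3:**
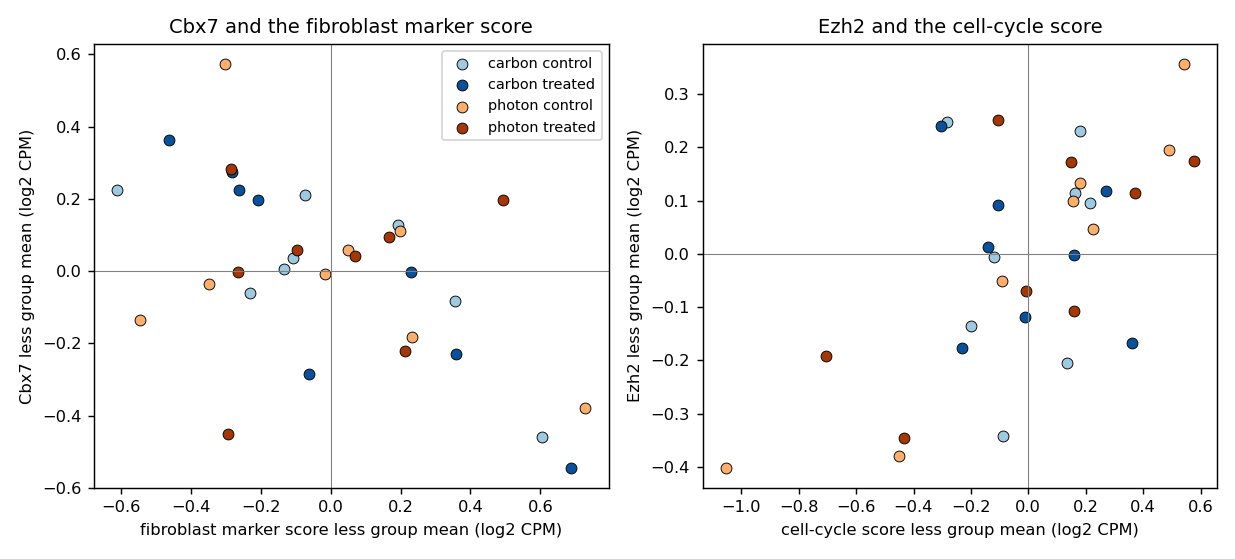
Each point is 1 library less its group mean, in log2 CPM. Cbx7 against the fibroblast score has r = -0.540, and Ezh2 against the cell-cycle score r = 0.594, over 32 libraries.

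The wider Polycomb genes came from lists chosen with earlier results of these data known. Over 21 other PRC1 genes, edgeR called 1 after photons, against 4 by DESeq2, 3 with upper-quartile scaling, 3 with a stricter filter and 0 to 2 with single libraries left out. The 1 was Scmh1, a PRC1-associated protein, which rose from 23.5 ± 3.73 to 29.1 ± 2.67 CPM (SD, n = 8; log2 fold change 0.31, adjusted p = 0.0404; called in 20 of 32 fits with a library left out, 0.00797 to 0.0977). All genes were called higher in 1.71% and lower in 2.1% of cases in that contrast. Between the controls 3 PRC1 genes were called lower in carbon_ctrl, Fbrs (-0.34, adjusted p = 0.00657), Pcgf2 (-0.38, 0.0253) and Phc1 (-0.36, 0.0434), and 1 higher, Bcorl1 (0.42, 0.0217), against 4.01% lower and 5.13% higher overall. Pcgf2 encodes a ring finger partner like Bmi1, Phc1 a polyhomeotic subunit, Bcorl1 a corepressor of variant PRC1, and Fbrs and Auts2 subunits of variant PRC1. The median of the list was 0.10 after photons and -0.02 between the controls. With single libraries left out, Phc1 was called in 4 of 32 fits (adjusted p up to 0.125), Pcgf2 in 26 (up to 0.0756), Bcorl1 in 28 (up to 0.0587) and Fbrs in 32. Phc1 was also not called with no filter (-0.36, adjusted p = 0.0703) or with only the groups compared (-0.35, 0.0807). Bcorl1 was not called with M-titled libraries alone (0.45, 0.0566). With an epithelial score as a term 0 of these 4 genes was called (Fbrs -0.26, adjusted p = 0.1), and with a fibroblast score 1, Fbrs (-0.30, adjusted p = 0.043). Pcgf2 was -0.41 with the epithelial and -0.42 with the fibroblast score, Phc1 -0.35 and -0.34, and Bcorl1 0.31 with each. Scmh1 was not called with M-titled libraries alone (0.31, adjusted p = 0.0567), with only the groups compared (0.0657), with no filter (0.0821) or with either score (0.29 with each, adjusted p = 0.189 and 0.0689). Between the irradiated groups Auts2 was lower in carbon_treated (50.9 ± 26.6 against 102 ± 42.1 CPM, log2 fold change -1.01, adjusted p = 0.0402; called in 24 of 32 fits with a library left out, up to 0.101, and not called with adjusted p = 0.137 with an epithelial score, 0.0637 with no filter and 0.0857 with only the groups compared), against 1.54% of genes lower and 3.55% higher. In that contrast 1 PRC1 gene was called, against 4 by DESeq2, 4 with upper-quartile scaling, 4 with a stricter filter and 0 to 4 with single libraries left out.

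Of the 10 other PRC2 genes edgeR called 0 after photons and DESeq2 0, against 3.81% of all genes in edgeR. At an unadjusted p under 0.05 there were 3, against 21.5% of all genes. Between the controls Rbbp7, a histone-binding subunit, was higher in carbon_ctrl (191 ± 29.3 against 144 ± 29.8 CPM; 0.41, adjusted p = 0.0404), and Epop, a PRC2 accessory factor, was lower (2.04 ± 0.46 against 3.41 ± 0.58; -0.74, adjusted p = 0.0331). Over all genes 5.13% were called higher and 4.01% lower in that contrast. With single libraries left out they were called in 19 and 23 of 32 fits (adjusted p up to 0.0996 and 0.0879), and 0 of the 10 genes was called with M-titled libraries alone, with no filter or with either score as a term. Rbbp7 was then 0.42, 0.41, 0.40 (fibroblast) and 0.25 (epithelial), and Epop -0.71, -0.74, -0.47 and -0.63. Among 10 genes of H2A deubiquitination and H3K27 demethylation, Asxl1, which activates the deubiquitinase, was 124.6 to 147.4 CPM in photon_treated and 123.1 to 155.7 in photon_ctrl, against 93.67 to 115.3 in carbon_ctrl and 96.85 to 120.7 in carbon_treated. Neither the controls nor the irradiated groups overlapped, a gap found in 1.31% of genes between the controls and 0.161% between the irradiated groups. Asxl1 was called lower in the carbon arm in both contrasts (-0.34, adjusted p = 0.000649, and -0.29, adjusted p = 0.0141), and the second call was lost, at nearly the same fold, with only the groups compared (-0.28, adjusted p = 0.0564) and with an epithelial score as a term (-0.27, adjusted p = 0.063). Between the controls Asxl2 was also lower (-0.28, 0.00844), as was Mbd5 (-0.33, 0.0486; called in 8 of 32 fits with a library left out, up to 0.117), and the demethylase Kdm6a was higher (0.30, 0.0189), against the same 4.01% lower and 5.13% higher over all genes. With an epithelial score as a term Asxl2 was -0.23 (adjusted p = 0.11) and Kdm6a 0.22 (0.192). Kdm6a was 0.19 with a fibroblast score (0.164) and 0.30 with M-titled libraries alone (0.106), and it reached 0.0555 without photon_ctrl replicate 3. Mbd5 lost its call between the controls with upper-quartile scaling (0.0702), no filter (0.077), a stricter filter (0.0602), only the groups compared (0.0655), M-titled libraries alone (0.135) and both scores (0.089 and 0.331), at -0.35 to -0.23. Mbd5 was lower in carbon_treated too (-0.36, adjusted p = 0.0435; called in 24 of 32 fits with a library left out, up to 0.0962). That call was lost with no filter (0.0721), only the groups compared (0.0857) and an epithelial score (0.214). After carbon ions 0 genes of these lists were called by edgeR and 0 by DESeq2, with 0 of the other PRC1 genes, 1 of the other PRC2 genes and 1 of the deubiquitination and demethylation genes at an unadjusted p under 0.05. The HP1 gene Cbx1, a chromobox reader of H3K9 methylation outside Polycomb, was lower in carbon_ctrl (-0.26, adjusted p = 0.0361; called in 10 of 32 fits with a library left out, with adjusted p up to 0.115). That call was lost with no filter (0.0751), only the groups compared (0.0502), M-titled libraries alone (0.107), a fibroblast score (0.166) and an epithelial score (0.148), at -0.27 to -0.22.

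Of 39 Hox genes, classical Polycomb targets, 28 were tested. After photons 4 were called lower and 0 higher, against 2.1% and 1.71% of all genes. The log2 fold change was negative for 24 of 28 with a median of -0.52, against a median of -0.000605 with 49.9% positive over all genes. Hoxa4 fell from 0.554, 0.872 and 1.28 CPM (lowest, median and highest) in photon_ctrl to 0.0, 0.236 and 0.440 in photon_treated, with no overlap, as in 0.474% of genes (log2 fold change -1.82, SE 0.37, adjusted p = 0.0078). Hoxb2 (-2.24, adjusted p = 0.0306), also without overlap, Hoxa2 (-1.61, adjusted p = 0.0294) and Hoxa3 (-0.99, adjusted p = 0.0399) were the others; with single libraries left out they were called in 27, 27 and 21 of 32 fits, with adjusted p up to 0.127, 0.0670 and 0.0932. The count was 2 with no filter (Hoxa2 0.0534, Hoxa3 0.0676) and 2 with a stricter filter, under which Hoxa4 and Hoxa2 were not tested. It was 3 with upper-quartile scaling (Hoxa3 0.0503) and 1 to 4 with single libraries left out. After carbon ions edgeR called 0, with 1 unadjusted and 0 by DESeq2, and a median of 0.04. Between the controls 3 were lower in carbon_ctrl: Hoxa4 (-1.35, adjusted p = 0.0153), Hoxa3 (-0.94, 0.0288) and Hoxc11 (-0.88, 0.0444), against 4.01% lower over all genes, with a median of -0.55 over 28 genes and -0.0232 over all genes. With single libraries left out Hoxa4 was called in 32 of 32 fits, Hoxa3 in 24 (adjusted p up to 0.0626) and Hoxc11 in 8 (up to 0.0871). With no filter 1 of the 3 was called (Hoxa3 -0.94, adjusted p = 0.0501, Hoxc11 -0.88, 0.0724). M-titled libraries alone, with 4 of carbon_ctrl, gave 0 calls, at -1.08 for Hoxa4, -0.67 for Hoxa3 and -1.03 for Hoxc11. With a fibroblast score as a term, 0 Hox genes were called after photons and 0 between the controls, and with an epithelial score 1 and 0. Between the controls Hoxa4 was -1.04 with a fibroblast and -1.09 with an epithelial score, Hoxa3 -0.65 and -0.60, and Hoxc11 -0.96 and -0.81. The folds stayed negative: after photons Hoxa4 was -1.42 with a fibroblast score (adjusted p = 0.0764) and -1.67 with an epithelial score (0.0165), Hoxa2 -1.41 (0.191) and -1.53 (0.0526), Hoxb2 -1.13 (0.358) and -1.92 (0.0642), and Hoxa3 -0.65 (0.298) and -0.82 (0.0836). The levels are low: the 28 genes summed to 22.3 to 91.6 CPM per library.

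**Figure D4:**
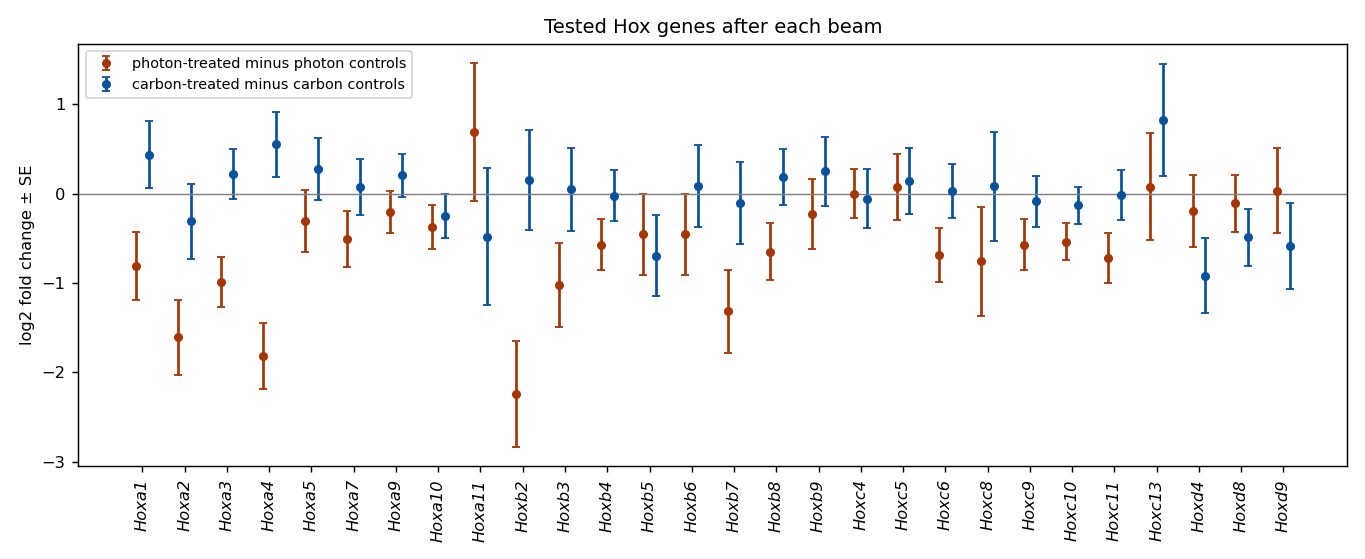
Log2 fold change ± SE of the 28 tested Hox genes after photons and after carbon ions, each against its own controls. Most photon values lie below 0, with a median of -0.52, and the carbon-ion values lie on both sides of it, with a median of 0.04.

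Genes reported in the wider literature to change with Cbx7 were few. Of 8 tested, Ccne1, a G1/S cyclin, was lower after photons (7.28 ± 2.71 to 4.25 ± 1.34 CPM; -0.78, adjusted p = 0.0382; called in 21 of 32 fits with a library left out, up to 0.102), against 2.1% of all genes lower. The call was lost with a fibroblast score (-0.51, adjusted p = 0.349), an epithelial score (-0.75, 0.0605), only the groups compared (-0.77, 0.0696), M-titled libraries alone (0.0592) and no filter (0.0595). Cdh1, the epithelial cadherin, was higher in carbon_ctrl than in photon_ctrl (833 ± 94.3 against 627 ± 83.4 CPM; 0.41, adjusted p = 0.0404; called in 13 of 32 fits with a library left out, up to 0.104), and it is also an epithelial marker. With an epithelial score as a term, which includes Cdh1 itself, the value was 0.19 (adjusted p = 0.469), with a fibroblast score 0.34 (0.181), with M-titled libraries alone 0.37 (0.232) and with no filter 0.41 (0.075). Cdkn2a, the locus Cbx7 is known to repress, was 145 ± 15.6 CPM in carbon_ctrl, 152 ± 36.6 in carbon_treated, 147 ± 18.3 in photon_ctrl and 149 ± 22.6 in photon_treated (SD, n = 8). Its log2 fold change after photons was 0.02 (SE 0.12, adjusted p = 0.951). Cdkn2b, its neighbour, was 63.3 ± 8.38 CPM in photon_ctrl and 72.2 ± 9.16 in photon_treated (0.19, adjusted p = 0.337).

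Distances from Cbx7 are between RefSeq gene spans, which differ slightly from the GENCODE spans given above. Cbx6 lies 81.5 kb away, at the lower coordinates, with Apobec3 overlapping Cbx7 on the opposite strand and Pdgfb 24.7 kb away. Apobec3, an antiviral deaminase, was 168 to 178 CPM on average in the photon groups and was not called (0.08 after photons, adjusted p = 0.577). Whether the counting used strand is not given in the sources used here, so reads of the overlap could not be assigned with certainty. Pdgfb, a growth factor, had a log2 fold change of -0.07 after photons (adjusted p = 0.698), and the ribosomal protein gene Rpl3 of -0.01 (adjusted p = 0.977). Syngr1, a vesicle protein 120 kb away, rose after photons from 19.6 ± 3.05 to 29.01 ± 6.18 CPM (0.57, adjusted p = 0.0323; called in 24 of 32 fits with a library left out, up to 0.0875). It was also higher in carbon_ctrl (29.5 ± 4.03 CPM; 0.59, adjusted p = 0.0134). Between the controls Syngr1 was 0.54 with M-titled libraries alone (adjusted p = 0.0787), 0.50 with a fibroblast score (0.0815) and 0.45 with an epithelial score (0.149). After photons it was 0.48 (0.204) and 0.51 (0.0604) with these scores. Tab1, a kinase adaptor, was higher in carbon_ctrl by 0.23 (adjusted p = 0.0446; called in 19 of 32 fits with a library left out, up to 0.0959). It was not called with upper-quartile scaling (0.0715), no filter (0.1), only the groups compared (0.0786), M-titled libraries alone (0.281), a fibroblast score (0.267) or an epithelial score (0.298). Mgat3, Dnal4, Npcd and Nptxr passed in neither comparison. Over all genes, 1.71% were called higher after photons (3.81% in either direction) and 5.13% higher in carbon_ctrl (9.14%).

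**Figure D5:**
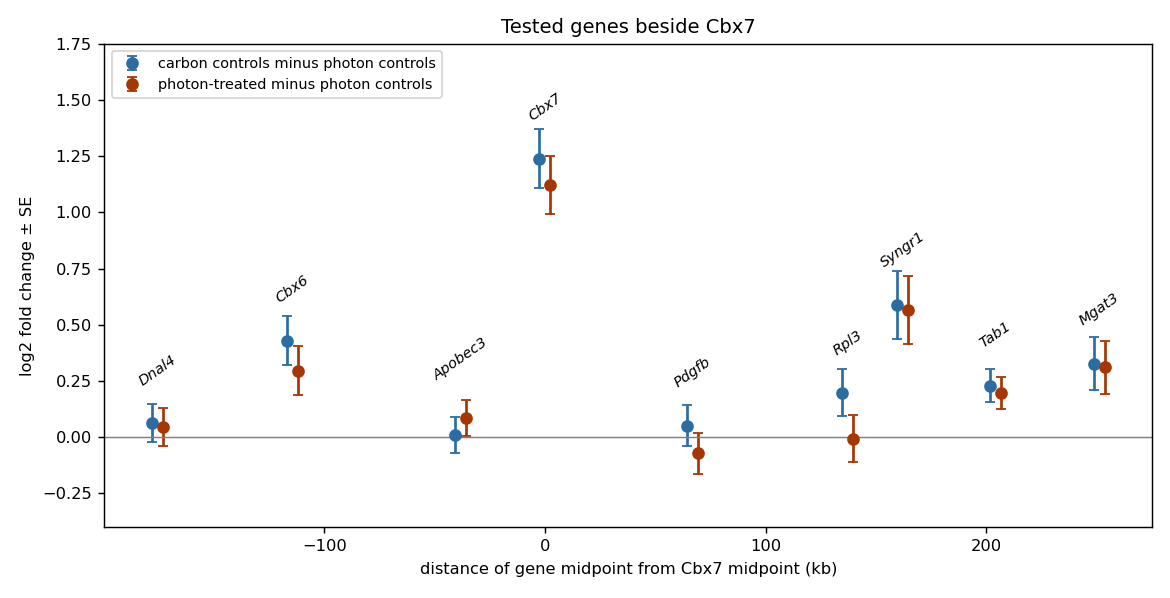
Log2 fold change ± SE of tested genes by the distance of their midpoint from that of Cbx7, in kb; Npcd and Nptxr, with SE above 0.9, are not drawn. Cbx7 lies above 1 in both comparisons, Syngr1 near 0.57, and Apobec3 and Pdgfb near 0.

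The genes whose log2 CPM was most like that of Cbx7 over the 32 libraries were Slc17a4 (r = 0.912), Tox (0.895), Inpp5j (0.854), Agbl3 (0.848) and Slc16a10 (0.839), and the most opposite were Gnb4 (-0.832), Clstn1 (-0.829) and Socs3 (-0.817). These rest in part on the step between photon_ctrl and the rest, and the 1st and 99th percentiles over 11542 genes were -0.704 and 0.723. After subtracting group means the highest were Grpel2 (0.761), Slc17a4 (0.745), Baiap2l2 (0.713), Zfp53 (0.695) and Epb41l4a (0.692), and the lowest Ism1 (-0.728), Pros1 (-0.726) and Socs3 (-0.705). Less group means, the 1st and 99th percentiles over the same 11542 genes were -0.563 and 0.543. Among the members less group means, Bmi1 and Rnf2 had r = 0.694, Cbx8 and Bmi1 0.627, Cbx8 and Rnf2 0.556, Cbx6 and Ezh2 -0.522, Cbx6 and Bmi1 0.515 and Cbx6 and Cbx8 0.508; all other pairs lay within ±0.5. Of all genes, 8.67% correlated with Bmi1 as strongly, in either direction, as Rnf2 did. The share was 1.14% and 5.18% for Cbx8 (against Bmi1 and Rnf2) and 9.998%, 10.8% and 11.4% for Cbx6 (against Ezh2, Bmi1 and Cbx8). Cbx7 and Cbx6 had r = 0.086. In all 36 pairs were computed; these correlations are descriptions over libraries that share scaling and depth.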

How the data were processed

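Tumour pieces were kept in RNAlater and sequenced as stranded mRNA libraries, per the labels' protocols. The authors deposited estimated counts (expected counts) per gene symbol for 32 libraries; the submitters' processing notes name FastQC 0.12.0, Trimmomatic 0.32, RSEM 1.3.3 and build mm10, without roles, and the annotation and strand setting are not given in the sources used here. Counts were rounded to whole numbers, which changed library totals by at most 0.00403%. The design assumed counts that might be estimated. Genes were filtered by filterByExpr (minimum count 10; 20474 of 55103 kept) and scaled by TMM, and 1 edgeR 4.0.16 quasi-likelihood model (R 4.3.3) with a coefficient per group gave 5 contrasts, with Benjamini-Hochberg adjustment over all genes and a threshold of 0.05. log2 CPM used a prior count of 2. DESeq2 1.42.0 was an alternative. The script was tested on simulated data.

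Groups came from the treatment label. Nothing in the labels says whether libraries came from separate animals, so p-values measure the spread between libraries. Members and lists were chosen with earlier results of these data known. Named genes were all 9 members, the up to 4 (Hox and genes reported for Cbx7, 3) with the smallest adjusted p per list and contrast among those under 0.05, the nearest tested neighbours of Cbx7, and those most and least correlated with it; Hoxa3 after photons, Alkbh4, Slc12a9 and B630019K06Rik were added after their values were seen.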

Additional observations from a re-analysis of the deposited data

Results flagged for a closer look

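In the group photon_treated, replicate 3 had the lowest Cbx6 level, and its gap to the next library was 0.6275 of the group's range. In carbon_ctrl, replicate 5 had the lowest Cbx7 level, with a gap of 0.5525 of the range. About 1 in 20 groups of this size gives such a gap by chance, and 36 groups were examined.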

How the results depend on the processing

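The count of called members other than Cbx7 was the same under other scalings, filters, DESeq2, M-titled libraries alone, only the groups compared and most single-library omissions. Between the controls it was 0 with an epithelial score as a term (chosen after seeing the data), and after photons it was 1 without photon_ctrl replicate 2. The counts ranged from 0 to 1 over the single-library omissions, and no called value changed sign. Uncalled log2 fold changes near 0 did: between the controls Bmi1 went from 0.05 to -0.05 with an epithelial score, and Cbx2 from -0.02 to 0.02 without photon_ctrl replicate 6. For members other than Cbx7, 39 values with a library left out and 11 under other alternatives changed sign, all uncalled. Upper-quartile scaling moved the balance of all called genes to 566 higher and 394 lower after photons (351 and 430 with TMM, 387 and 411 with RLE) and to 519 and 537 between the irradiated groups (726 and 315 with TMM, 788 and 325 with RLE). After photons it was 39 and 15 with a fibroblast score and 247 and 236 with an epithelial score, and higher calls also outnumbered lower ones without photon_ctrl replicate 3 (134 and 105), 5 (207 and 198) or 8 (135 and 134) and without photon_treated replicate 1 (204 and 163), 3 (269 and 211) or 7 (192 and 158). Over all genes, edgeR called 781 after photons, against 1524 by DESeq2, 431 with no filter, 54 with a fibroblast score and 483 with an epithelial score. After carbon ions it called 0, against 17 by DESeq2. For the difference between beam effects it called 16, against 262 by DESeq2, 94 with upper-quartile scaling, 62 with a stricter filter, 4 with no filter, 1 with M-titled libraries and 8 with a fibroblast score. Between the controls it called 1871, against 973 with M-titled libraries, 671 with a fibroblast score and 438 with an epithelial score. Between the irradiated groups it called 1041, against 1947 by DESeq2, 319 with no filter, 57 with only the groups compared and 7 with an epithelial score. Leaving out single libraries gave 239 (without photon_ctrl replicate 3) to 1656 (without photon_ctrl replicate 2) after photons and 0 to 5 (without carbon_treated replicate 2) after carbon ions. It gave 5 (without carbon_treated replicate 6) to 108 (without photon_ctrl replicate 2) for the difference, 1178 (without photon_ctrl replicate 3) to 2196 (without carbon_treated replicate 2) between the controls and 108 (without photon_treated replicate 3) to 2159 (without carbon_treated replicate 3) between the irradiated groups, so the shares of all genes called are wide. The cause was not tested. The added score terms and the within-group slopes were chosen after seeing the data. No paired analysis was possible because the replicate numbers were given in accession order and carry no pairing.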
